A study of Sus scrofa with 8 samples.

Results

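The RNA of the neutral lipases of the pig liver and of the proteins that set their activity was followed from the initial state to steatosis. The genes were taken from a list of 10 (PNPLA2, PNPLA3, ABHD5, G0S2, LIPE, MGLL, LIPC, LIPG, CES1 and AADAC) and were found by their symbol in the expression table of 18103 genes and new transcripts. A row was present for 9 of them, and all 9 passed the filter on low values described below. AADAC had no row under that symbol. The rule that found them used the symbol and no measured value, but the list was written with earlier results of these data known.

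Hepatic RNA of male Landrace x Large White pigs was sequenced as 8 pools, each of equal RNA amounts from 2 pigs, after an overnight fast. A set of 4 pools (Control in the labels) came from healthy animals of 4 months at the start of the experiment, sampled by laparotomy. The other 4 pools (Steatosis) came from livers taken after euthanasia at 6 months, when the animals had eaten a steatotic diet for 2 months, which was rich in saturated fat, fructose, cholesterol and cholate and poor in methionine and choline. The study describes the animals of both states as the same, without stating which pigs entered each pool. The diet, the age and the way of sampling changed together between the groups and cannot be told apart. A replicate here is a pool and not a pig. Values are FPKM, a fragment number scaled to the transcript length and the mapped fragments of the library, so levels can be set side by side between genes.

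Triglycerides in lipid droplets are hydrolysed stepwise. PNPLA2 (adipose triglyceride lipase, ATGL) removes the first fatty acid, LIPE (hormone-sensitive lipase) mainly acts on the diglyceride and MGLL (monoglyceride lipase) on the monoglyceride, while ABHD5 (CGI-58) activates PNPLA2 and G0S2 inhibits it. Hepatic lipase (LIPC) and endothelial lipase (LIPG) are secreted and act on lipoproteins in the circulation, and CES1 is an abundant ester hydrolase of the hepatocyte endoplasmic reticulum.

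In steatosis the RNA of G0S2, an inhibitor of ATGL, was lower (33.0 ± 6.87 against 76.6 ± 32.2 FPKM, mean ± SD, n = 4 pools). The RNA of the secreted lipase LIPC (174 ± 7.53 against 123 ± 16.4 FPKM) and of CES1 (346 ± 46.4 against 247 ± 48.8 FPKM) was higher. These were the 3 of 9 genes with an adjusted p under 0.05 in limma, which was fitted to log2(FPKM + 0.1) of the 13175 genes that reached 0.3 FPKM in 4 or more libraries. Of all 13175 genes, 29.0% reached that limit, 26.7% higher in steatosis and 2.28% lower, so the share of 33.3% among the lipase genes was near that of all genes. At the stricter limits of an adjusted p under 0.01 together with a log2 fold change beyond 1, limma called 0 of the 9 genes, and 3 had an unadjusted p under 0.05. The strict limits were met by 6.35% of all genes (6.01% higher, 0.334% lower), and an unadjusted p under 0.05 by 41.9%. Both groups of pools were apart without overlap for 2 of the 9 genes, LIPC and CES1, both higher in steatosis, a pattern found in the same direction in 29.6% of all genes and in the other direction in 2.53%.

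The median log2 fold change of the 9 genes was 0.01, and that of all 13175 genes was 0.25, so most genes had higher FPKM in steatosis. When each library was divided by the median of its ratios to the average library, called scaling by the median ratio below (factors of 0.807 to 0.991 in the initial state and 1.08 to 1.11 in steatosis), the median of all genes became -0.01. Measured against the general shift, 4 of the lipase genes lay above the median of all genes and 5 below. After this scaling limma called 0 of the 9 genes higher and 2 lower (G0S2 and ABHD5) at an adjusted p under 0.05, against 11.7% and 9.78% of all genes. Without both libraries of pool 1, which are described below, it called LIPC higher and G0S2 lower, against 18.4% and 1.76% of all genes. G0S2 was thus the gene called in all 3 fits. In liver tissue, a change in the number of cells of a type and a change in the RNA per cell cannot be told apart.

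**Figure D1:**
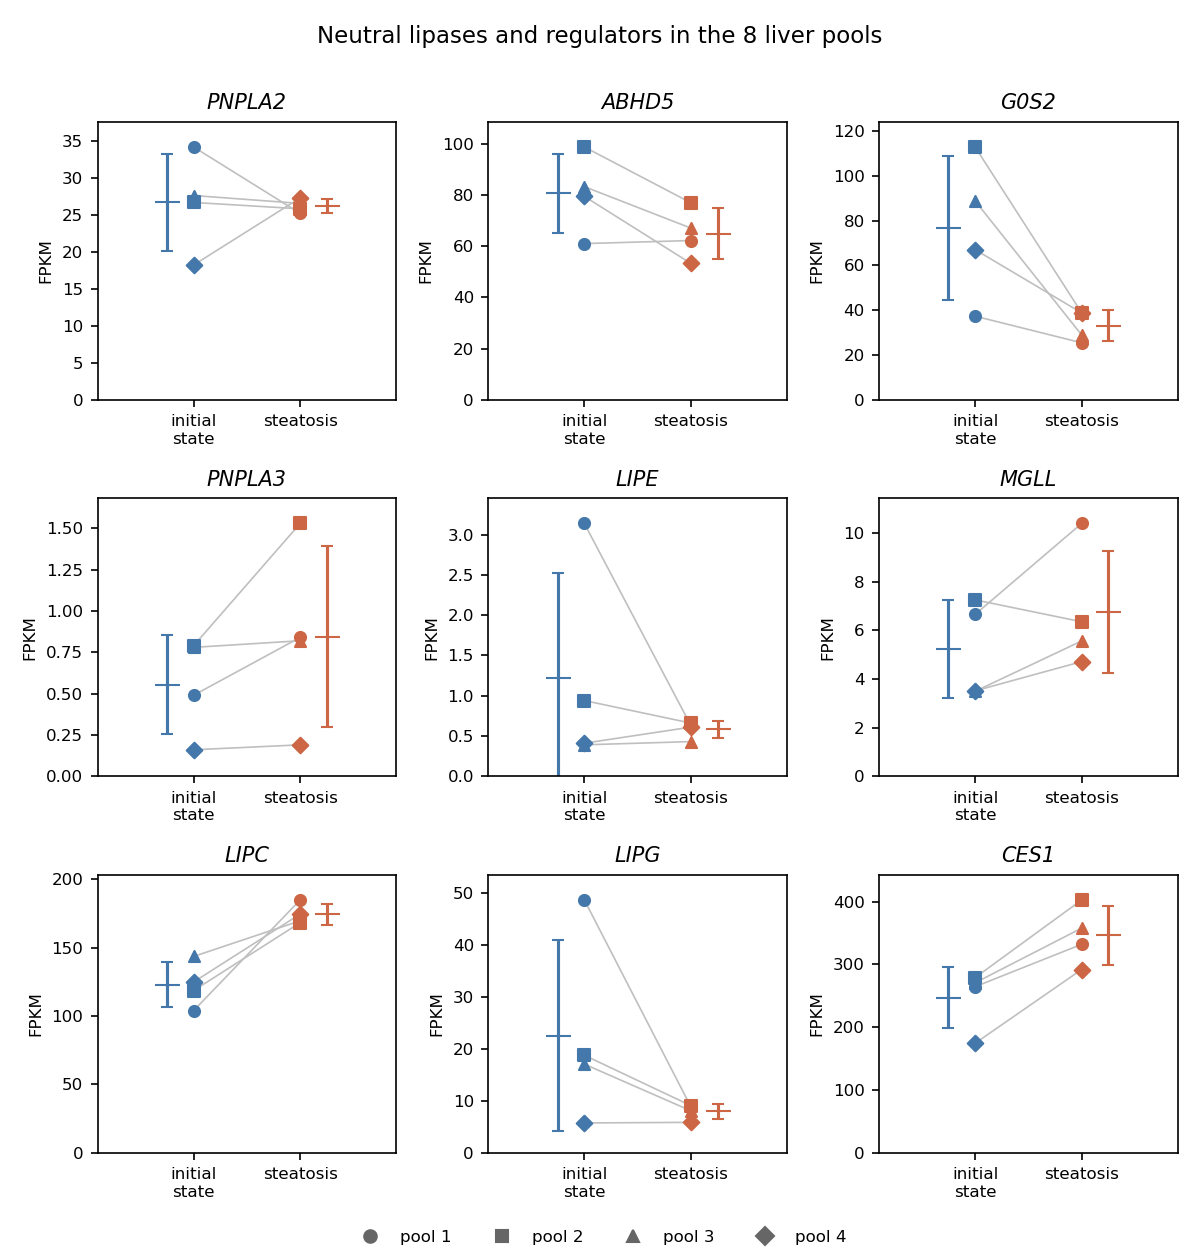
FPKM of the 9 lipase genes (y axes from 0) in the initial state (blue) and in steatosis (orange), with 1 point per pool of 2 pigs, grey lines joining pools of the same number, and bars for the mean ± SD of 4 pools (the bar of LIPE is cut at 0). G0S2 was lower in steatosis in all 4 pool pairs, LIPC and CES1 were higher without overlap, and LIPE and LIPG had their highest value in pool 1 of the initial state.

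Before the single genes, the libraries themselves were compared. All carried hepatocyte markers at high level, with a summed FPKM of 53210 to 91373 over the marker genes. Pool 1 of the initial state stood apart: its skeletal muscle markers summed to 2809 FPKM (0.82 to 21.0 in the other 3 initial pools, 0.10 to 0.35 in steatosis) and its stomach markers to 2260 FPKM (5.60 to 44.2, and 5.73 to 6.37). Its adipocyte markers summed to 122 FPKM, against 34.5 to 35.5 in the other initial pools and 93.2 to 106 in steatosis. ADIPOQ, the adipocyte hormone adiponectin, was at 27.9 FPKM in this pool and at 0 to 0.60 FPKM in the other 7, and LEP was at 0.40 FPKM there and listed at 0 in the other 7. Not every gene of the adipocyte list was raised in this pool. PLIN1, named after its values were seen, was at 3.01 FPKM and AQP7 at 0.76 FPKM, both within the range of the other initial pools. Pool 4 of the initial state had the highest share of albumin RNA, 13.0% of the summed FPKM against 6.22% to 8.89% in the other libraries, and the lowest scaling factor. In all 4 steatosis pools, summed macrophage markers (1927 to 2415 FPKM against 908 to 1169) and endothelial markers (122 to 143 against 82.0 to 96.8) were above every initial pool. Summed stellate cell markers overlapped (110 to 282 against 59.4 to 248). Such sums follow their most abundant genes. Of the 12 macrophage markers, 9 were higher and 0 lower at an adjusted p under 0.05 in limma, against 26.7% and 2.28% of all genes. Of the 10 endothelial markers, 4 were higher and 0 lower under this rule, and 0 met the strict limits. Among the macrophage markers, 1 abundant gene went the other way. This was CD14, named after its values were seen and not among the 9 (179 ± 18.5 FPKM in steatosis against 204 ± 16.5 FPKM). The part of these cell types in the results was not tested.

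By level, the 9 genes kept almost the same order in both groups. In the initial state CES1 was the most abundant, followed by LIPC, ABHD5, G0S2, PNPLA2, LIPG, MGLL, LIPE and PNPLA3. The ranges of the pools overlapped between ABHD5 and G0S2, between PNPLA2 and LIPG, between LIPG and MGLL, and between LIPE and PNPLA3. Within the initial libraries, LIPG was above MGLL in 4 of 4 pools, PNPLA2 above LIPG in 3, LIPE above PNPLA3 in 3 and ABHD5 above G0S2 in 2. In steatosis LIPE and PNPLA3 changed places, with overlapping ranges, and overlap was also found between G0S2 and PNPLA2 and between LIPG and MGLL. Within the steatosis libraries, G0S2 was above PNPLA2 in 4 of 4 pools, LIPG above MGLL in 3 and PNPLA3 above LIPE in 3. ABHD5 and G0S2, which overlapped in the initial state, were apart in steatosis, where the lowest ABHD5 value was 53.3 FPKM and the highest G0S2 value 38.9 FPKM.

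The first lipase of the cascade, PNPLA2 (gene ID 100049704, Sscrofa11.1 chromosome 2, 513065 to 517962), was measured at 34.2, 26.7, 27.6 and 18.2 FPKM in pools 1 to 4 of the initial state and at 25.2, 25.8, 26.6 and 27.3 FPKM in steatosis. All 4 steatosis values lay within the range of the initial pools, of which pool 1 was the highest and pool 4 the lowest. The means were 26.7 ± 6.56 and 26.2 ± 0.901 FPKM. The fitted log2 fold change was 0.01 (SE 0.17, 95% CI -0.36 to 0.38, limma adjusted p = 0.970), an interval that holds changes in both directions. It turned to -0.26 after scaling by the median ratio and to -0.16 when initial pool 4 was left out, and neither value passed the test.

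ABHD5 (497624, chromosome 13, 27006331 to 27053760) encodes the activator of PNPLA2. Its values were 61.0, 98.8, 83.3 and 79.5 FPKM in the initial state and 62.2, 77.0, 67.1 and 53.3 FPKM in steatosis. Pools 2, 3 and 4 were each lower in steatosis than at the start, pool 1 was almost equal, and the groups overlapped. The log2 fold change of -0.30 (SE 0.16, 95% CI -0.66 to 0.05) did not pass the test (limma adjusted p = 0.171). It was -0.58 with an adjusted p of 0.0280 in limma after scaling by the median ratio, and -0.43 with an adjusted p of 0.0462 without pool 1 of the initial state. Blocking on the pool number gave an adjusted p of 0.0844 in limma.

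G0S2 (100624161, chromosome 9, 133287065 to 133288066), an inhibitor of PNPLA2, was the one lipase gene that passed the test in the lower direction. It was measured at 37.3, 113, 88.9 and 67.1 FPKM in the initial state and at 25.4, 38.9, 29.0 and 38.8 FPKM in steatosis. Pools 2, 3 and 4 of the initial state were all above 67 FPKM and every steatosis pool was below 39 FPKM, while pool 1 of the initial state fell inside the range of steatosis. The steatosis value was lower in 4 of 4 pairs of pools with the same number. The ratio of the means was 0.431, and the log2 fold change was -1.12 (SE 0.30, 95% CI -1.80 to -0.45, limma adjusted p = 0.0214). On the mean FPKM the two-sided exact permutation test gave p = 0.0857, where 0.0286 is the smallest p that 4 pools against 4 allow.

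The difference in G0S2 was larger, or its error smaller, in the fit blocked on the pool. This also held without pool 1 of the initial state and without both libraries of pool 1. In the limma fit blocked on the pool number G0S2 had an adjusted p of 0.0055, which met the strict limits, as 0.433% of all genes did in the lower direction. Without pool 1 of the initial state the log2 fold change was -1.43 (limma adjusted p = 0.0015), and leaving out both libraries of pool 1 it was -1.31 (limma adjusted p = 0.0037). Scaling by the median ratio gave -1.40 (limma adjusted p = 0.0101). When pool 3 of the initial state, pool 1 of steatosis or pool 3 of steatosis was left out, the log2 fold change was -1.01, -1.01 and -1.07, and the adjusted p of limma rose to 0.0505, 0.0568 and 0.0525, above the limit. The direction was the same in all 19 alternative fits.

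**Figure D2:**
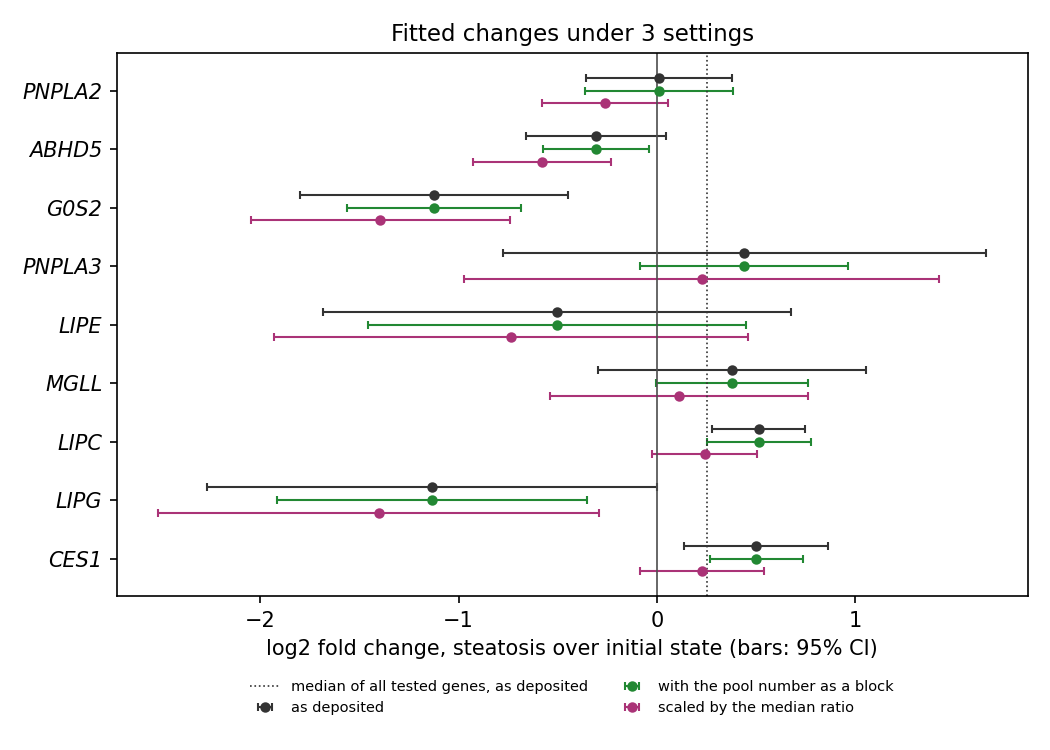
Log2 fold change of steatosis over the initial state with its 95% CI from limma (x axis) for the 9 genes (y axis), from FPKM as deposited (black), blocked on the pool number (green) and after scaling by the median ratio (purple), the dotted line marking the median of all tested genes at 0.25. The intervals of G0S2 lie below 0 in all 3 settings, and those of LIPC and CES1 reach 0 after scaling.

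Ratios between these genes within a library do not depend on the scaling between libraries, and 3 were computed, each to PNPLA2. For every unit of PNPLA2 RNA, G0S2 RNA was measured at 1.09, 4.23, 3.22 and 3.68 in the initial state and at 1.01, 1.50, 1.09 and 1.42 in steatosis. By FPKM, the RNA of G0S2 thus exceeded that of PNPLA2 by more than 3 to 1 in 3 initial pools. The levels of both were close in pool 1 and in steatosis. The ratio was lower in steatosis in 4 of 4 pairs of pools. These are ratios of RNA, and the proteins of these genes were not measured. The mean log2 ratio was 1.44 ± 0.890 in the initial state and 0.31 ± 0.282 in steatosis, a difference of -1.13 (two-sided exact permutation test, p = 0.0857, adjusted over the 3 ratios 0.257). Without pool 1 of the initial state the difference was -1.57.

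For ABHD5 over PNPLA2 the mean log2 ratio was 1.61 ± 0.559 in the initial state and 1.29 ± 0.251 in steatosis, a difference of -0.31 (exact permutation test, p = 0.314, adjusted 0.471) with overlapping pools. PNPLA3 over PNPLA2 differed by 0.43 (exact permutation test, p = 0.514, adjusted 0.514). Neither ratio passed the test.

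**Figure D3:**
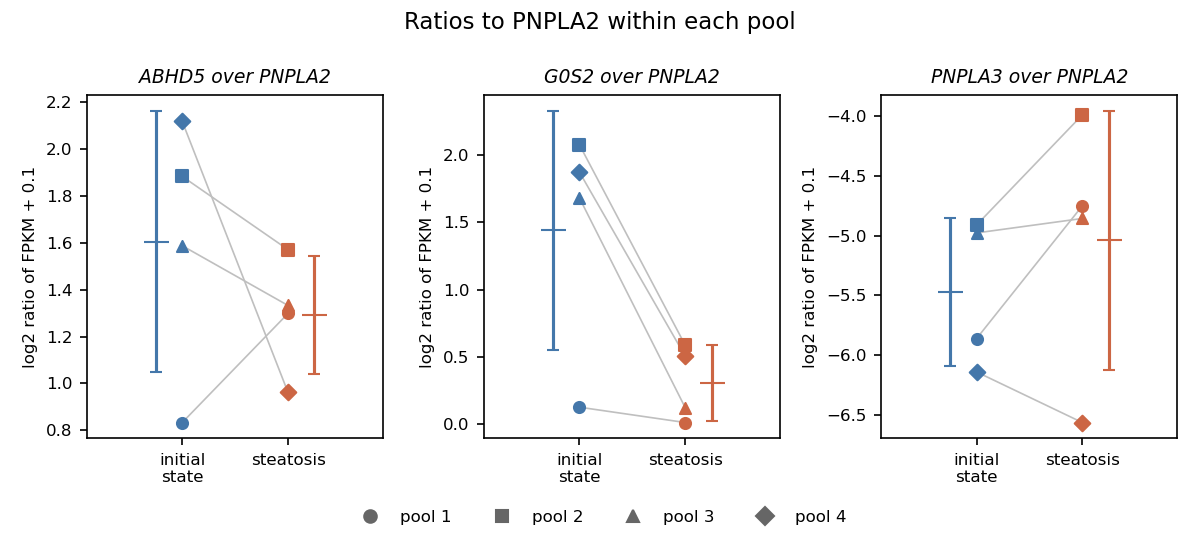
Log2 ratio of ABHD5, G0S2 and PNPLA3 to PNPLA2 in each pool (y axes, from FPKM + 0.1), for the initial state (blue) and steatosis (orange), with grey lines joining pools of the same number and bars for the mean ± SD of 4 pools. The G0S2 ratio of initial pools 2 to 4 lies above that of all steatosis pools, and initial pool 1 lies among them.

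PNPLA3 (100049690, chromosome 5, 5075608 to 5092599), a droplet protein of the same family as PNPLA2, was under 0.3 FPKM in pool 4 of both groups. It was measured at 0.49, 0.79, 0.78 and 0.16 FPKM in the initial state and at 0.84, 1.53, 0.82 and 0.19 FPKM in steatosis. The value was higher in steatosis in 4 of 4 pairs of pools, but pool 4 was the lowest of both groups and the spread between pools (CV of 53.7% and 64.8%) was wider than the change. The log2 fold change was 0.44 (SE 0.55, 95% CI -0.78 to 1.66, limma adjusted p = 0.568), and blocking on the pool number brought the SE to 0.22 (limma adjusted p = 0.174). At such low FPKM the pseudocount of 0.1 also understates the change.

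The later steps of the cascade did not pass the test either. LIPE (397583, chromosome 6, 49543671 to 49560126) was measured at 3.14, 0.94, 0.39 and 0.41 FPKM in the initial state and at 0.63, 0.66, 0.43 and 0.61 FPKM in steatosis. The value of pool 1 of the initial state was the only one above 1 FPKM, and it came from the library with adipocyte, muscle and stomach markers. The log2 fold change was -0.50 (SE 0.53, 95% CI -1.68 to 0.68, limma adjusted p = 0.498). Without that pool it was 0.08, and the mean of the other 3 initial pools was 0.58 ± 0.31 FPKM, equal to the 0.58 ± 0.10 FPKM of steatosis at this rounding.

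MGLL (100233193, chromosome 13, 72480395 to 72568964) was measured at 6.65, 7.25, 3.49 and 3.51 FPKM in the initial state and at 10.4, 6.35, 5.56 and 4.71 FPKM in steatosis. Pools 1, 3 and 4 were higher in steatosis and pool 2 was lower, with overlap between the groups. The log2 fold change was 0.38 (SE 0.30, 95% CI -0.30 to 1.06, limma adjusted p = 0.369).

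Of the secreted enzymes, LIPC (100233189, chromosome 1, 113433684 to 113604139) was measured at 104, 119, 144 and 125 FPKM in the initial state and at 185, 168, 170 and 175 FPKM in steatosis. Every steatosis pool was above every initial pool, and the spread in steatosis was narrow (CV of 4.32%). The mean was 1.42 times higher, with a log2 fold change of 0.51 (SE 0.11, 95% CI 0.28 to 0.75, limma adjusted p = 0.0062) and p = 0.0286 in the exact permutation test, the smallest it can give. Leaving out any single library kept the adjusted p of limma between 0.0036 and 0.0203. After scaling by the median ratio the log2 fold change was 0.24 and the adjusted p of limma 0.176, so the part of the LIPC difference beyond the general shift did not pass the test.

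LIPG (100155736, chromosome 1, 99081940 to 99110671), the endothelial lipase, was lower in steatosis in 3 of 4 pairs of pools. Its values were 48.7, 18.8, 17.1 and 5.73 FPKM in the initial state and 8.84, 9.07, 8.07 and 5.85 FPKM in steatosis. Pools 1, 2 and 3 of the initial state were above all steatosis pools, and pool 4 was below them. The means were 22.6 ± 18.3 and 7.96 ± 1.47 FPKM, and the log2 fold change of -1.13 (SE 0.51, 95% CI -2.27 to 0.004) did not pass the test (limma adjusted p = 0.120). The study, by its own calls, lists LIPG among its differentially expressed genes, under glycerolipid metabolism. In the fit blocked on the pool number LIPG had an adjusted p of 0.0413 in limma, and leaving out pool 4 of the initial state gave -1.66 (limma adjusted p = 0.0101). Without pool 1 of the initial state it was -0.64 (limma adjusted p = 0.226), with 13.9 ± 7.09 FPKM in the other 3 initial pools.

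LIPG and LIPE thus shared their highest library, pool 1 of the initial state, with the markers of other tissues. In that library ACTA1 (skeletal muscle actin) was at 1439 FPKM and TFF1 (a stomach mucosal peptide) at 727 FPKM, whereas no steatosis pool exceeded 0.04 FPKM for either gene. In pools 2, 3 and 4 of the initial state TFF1 was at 6.03, 11.7 and 0 FPKM and ACTA1 at 0.49, 4.08 and 10.5 FPKM. PNPLA2 was also highest in pool 1, by a smaller margin, and G0S2 had its lowest initial value there. The part of these other tissues in the values of pool 1 was not tested.

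**Figure D4:**
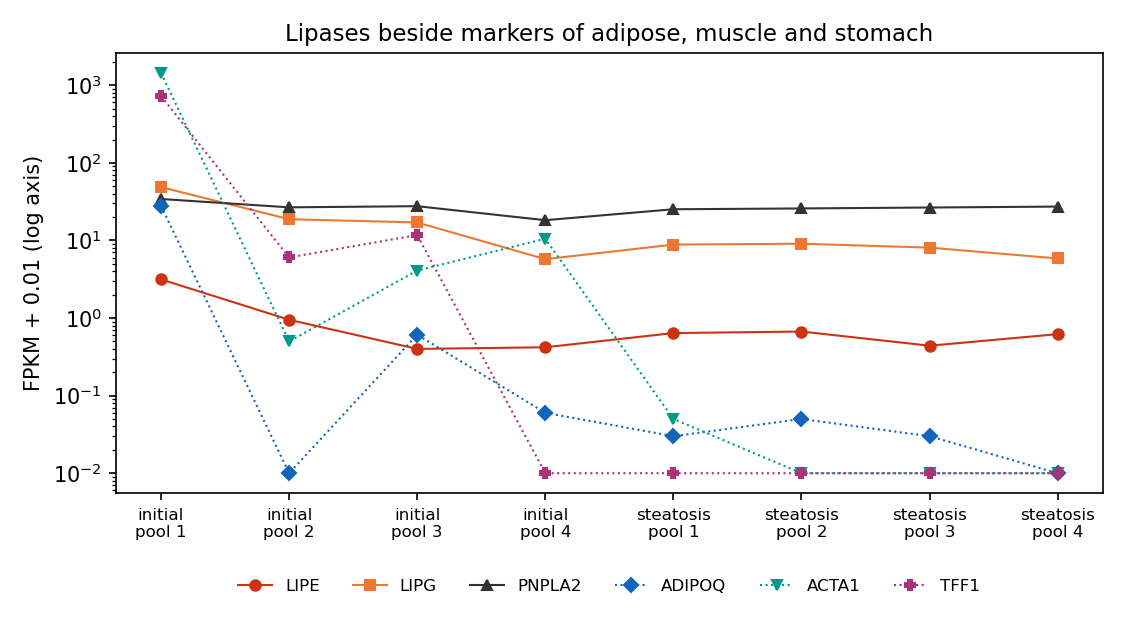
FPKM + 0.01 on a log axis (y) in the 8 libraries (x) for LIPE, LIPG and PNPLA2 (solid lines) and for ADIPOQ, ACTA1 and TFF1 (dotted lines), 1 marker each of adipose tissue, skeletal muscle and stomach. All 6 genes had their highest value in pool 1 of the initial state and these 3 markers were at or near 0 in steatosis, where the whole adipocyte list summed to 93.2 to 106 FPKM.

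CES1 (397478, chromosome 6, 29884249 to 29913330) was measured at 264, 279, 271 and 174 FPKM in the initial state and at 332, 402, 358 and 292 FPKM in steatosis. All steatosis pools were above all initial pools, and the value was higher in 4 of 4 pairs. The mean was 1.40 times higher, with a log2 fold change of 0.50 (SE 0.16, 95% CI 0.14 to 0.86, limma adjusted p = 0.0439) and p = 0.0286 in the exact permutation test. The adjusted p was near its limit. It stayed under 0.05 in 6 of 19 alternative fits and was 0.0108 in the limma fit blocked on the pool number. Scaling by the median ratio gave 0.23 (limma adjusted p = 0.272), and leaving out pool 4 of the initial state, the lowest of all, gave 0.34 (limma adjusted p = 0.0610).

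The CES1 row is 1 of 14 that the deposited table annotates as carboxylesterase 1, of which 12 are new transcripts and 1 is LOC100736962. Such near-identical copies can share reads, so the division of FPKM among them is uncertain. CES1 held 26.6% to 32.8% of their summed FPKM. LOC100736962, described as a liver carboxylesterase, was at 315 ± 67.5 FPKM in the initial state and 355 ± 32.5 FPKM in steatosis (log2 fold change 0.20, limma adjusted p = 0.374). The sum over all 14 rows was 966, 1050, 998 and 554 FPKM in the initial state and 1123, 1333, 1211 and 889 FPKM in steatosis. Pool 4 was the lowest of its group in both states and the groups overlapped, but the sum was higher in steatosis in 4 of 4 pairs of pools. The means were 892 ± 228 and 1139 ± 188 FPKM (two-sided exact permutation test, p = 0.171). Exact sign flips over the 4 pairs gave p = 0.125, the smallest they can give.

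**Figure D5:**
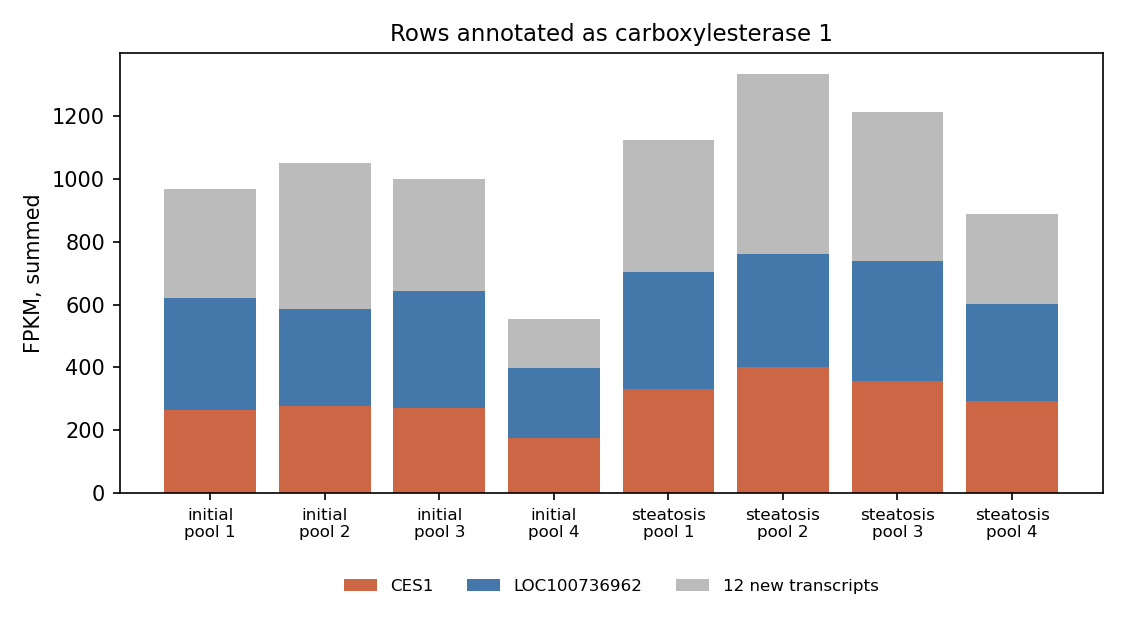
Summed FPKM (y axis, from 0) of the 14 rows annotated as carboxylesterase 1 in the 8 libraries (x axis), split into CES1 (orange), LOC100736962 (blue) and 12 new transcripts (grey). CES1 held 26.6% to 32.8% of each sum, and pool 4 of the initial state had the lowest sum, 554 FPKM.

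AADAC, a triglyceride hydrolase of the endoplasmic reticulum, could not be followed under its own symbol. A row described as arylacetamide deacetylase-like, LOC100623616 (chromosome 13, 92017495 to 92042944), was chosen after its values were seen. It was measured at 114, 118, 112 and 120 FPKM in the initial state and at 66.8, 72.5, 60.2 and 60.2 FPKM in steatosis. The pools were far apart, and the log2 fold change was -0.84 (SE 0.09, 95% CI -1.04 to -0.65, limma adjusted p = 0.00019). Whether this row is the pig AADAC gene is not given in the sources used here.

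The surroundings of these lipases were read from 7 lists with 104 gene entries, of which 95 had a row and 89 were tested. At the strict limits 7 entries were higher and 0 lower in steatosis (limma, 42 had an unadjusted p under 0.05), and at an adjusted p under 0.05 alone 24 were higher and 8 lower, against the 26.7% and 2.28% of all genes given above. The strict calls became 1 higher and 1 lower after scaling by the median ratio, and 4 higher and 1 lower without both libraries of pool 1. Over all 13175 genes the strict calls were 792 higher and 44 lower as deposited. They became 411 and 83 with that scaling, and 652 and 48 without both libraries of pool 1.

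Among the partners of ATGL and the proteins of the droplet coat, 11 genes were tested and 0 met the strict limits (limma, 4 with an unadjusted p under 0.05), with a median log2 fold change of -0.14 against 0.25 over all genes. At an adjusted p under 0.05, 0 were higher and 3 were lower, against 26.7% and 2.28% of all genes. PLIN2, the main coat protein of hepatic lipid droplets, fell from 160 ± 36.8 FPKM to 98.8 ± 15.6 FPKM (a log2 fold change of -0.68 with SE 0.17, limma adjusted p = 0.0172). The other genes called lower, named after their values were seen, were CIDEB (-0.65, limma adjusted p = 0.0058) and PLIN5 (-0.27, limma adjusted p = 0.0451). CIDEB is a droplet protein involved in VLDL lipidation, and PLIN5 is a coat protein that binds PNPLA2 and ABHD5. The rest of the list did not pass an adjusted p under 0.05, and some of its genes had a positive log2 fold change.

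Of the genes for hormonal and cyclic AMP control, 28 were tested and 0 met the strict limits (limma, 12 with an unadjusted p under 0.05). At an adjusted p under 0.05, 6 were higher and 0 lower, against 26.7% and 2.28% of all genes. The median log2 fold change of this list was 0.31. ADCY4, an adenylyl cyclase, rose from 1.57 ± 0.746 FPKM to 2.75 ± 0.488 FPKM (a log2 fold change of 0.86 with SE 0.28, limma adjusted p = 0.0431). Its pools overlapped (0.98 to 2.60 against 2.28 to 3.39 FPKM). It is named for the largest log2 fold change of the list, and other genes of the list had a smaller adjusted p. The 4 other patatin-like phospholipases tested gave 0 calls under either rule and 0 at an unadjusted p under 0.05 (limma), and PNPLA4 had a log2 fold change of 0.26 (SE 0.21, limma adjusted p = 0.376).

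The other carboxylesterases and neutral ester hydrolases had the highest median of the 7 lists, 0.79 over 11 genes tested, with 4 genes higher at the strict limits, 8 higher at an adjusted p under 0.05 and 0 lower, against 6.01% and 26.7% of all genes higher under these rules. NCEH1, a neutral cholesterol ester hydrolase known from macrophages, rose from 1.56 ± 0.383 FPKM to 4.86 ± 0.781 FPKM (a log2 fold change of 1.60 with SE 0.19, limma adjusted p = 0.00045). ABHD12, a lysophospholipid and monoglyceride hydrolase, rose from 6.19 ± 0.526 FPKM to 15.1 ± 1.37 FPKM (a log2 fold change of 1.27 with SE 0.11, limma adjusted p = 6.4e-05). DAGLA, a diacylglycerol lipase, rose from 0.42 ± 0.088 FPKM to 0.96 ± 0.212 FPKM (a log2 fold change of 1.03 with SE 0.21, limma adjusted p = 0.0066), and the fourth, CES3, named after its values were seen, had a log2 fold change of 1.01 (limma adjusted p = 0.0011). These rises stand beside the higher summed macrophage markers of every steatosis pool, whose part in them was not tested.

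For the partners of the secreted lipases, 13 genes were tested and 0 met the strict limits (limma, 5 with an unadjusted p under 0.05). At an adjusted p under 0.05, 2 were higher and 2 lower, against 26.7% and 2.28% of all genes. The median log2 fold change of this list was 0.08. PCSK6, a proprotein convertase that can cleave endothelial lipase, rose from 33.6 ± 5.85 FPKM to 59.5 ± 6.03 FPKM (a log2 fold change of 0.83 with SE 0.13, limma adjusted p = 0.0019). Those lower, named after their values were seen, were the apolipoproteins APOA5 (-0.73, limma adjusted p = 0.0170) and APOC3 (-0.47, limma adjusted p = 0.0378).

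Of 13 transcription factors tested, 1 was higher at the strict limits, against 6.01% of all genes. At an adjusted p under 0.05, 6 were higher and 1 lower, against 26.7% and 2.28% of all genes. The median log2 fold change of this list was 0.46. SREBF1, a driver of lipogenic genes, rose from 7.80 ± 3.19 FPKM to 25.2 ± 9.31 FPKM (a log2 fold change of 1.70 with SE 0.33, limma adjusted p = 0.0045). The gene that was lower, PPARGC1A, a coactivator of fatty acid oxidation genes, was named after its values were seen (-0.98, limma adjusted p = 0.0422).

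Of 9 genes for the fate of glycerol and fatty acids, 2 were higher at the strict limits, against 6.01% of all genes. At an adjusted p under 0.05, 2 were higher and 2 lower, against 26.7% and 2.28% of all genes. The median log2 fold change of this list was -0.42. AQP7, a glycerol channel known from adipocytes, was at 0.76, 2.80, 0.46 and 1.61 FPKM in the initial state and at 6.45, 8.16, 6.01 and 5.33 FPKM in steatosis (log2 fold change 2.39, SE 0.43, limma adjusted p = 0.0034). AQP7 is also on the adipocyte list, whose sum was 93.2 to 106 FPKM in steatosis against 34.5 to 35.5 FPKM in initial pools 2 to 4. Within that list FABP4 (41.9 to 53.6 FPKM) and LPL (5.21 to 11.4 FPKM) were high in every steatosis pool, whereas ADIPOQ was at 0.04 FPKM or less and LEP was listed at 0. Their part in the AQP7 result was not tested. FABP1, the fatty acid binding protein of the liver, rose from 213 ± 92.8 FPKM to 472 ± 85.9 FPKM (a log2 fold change of 1.22 with SE 0.26, limma adjusted p = 0.0077). The lower genes, named after their values were seen, were GPD1, which links glycerol 3-phosphate to glycolysis (-0.99, limma adjusted p = 0.0030), and CPT1A, which admits fatty acids to mitochondria (-0.60, limma adjusted p = 0.0389).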

How the data were processed

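Pooled liver RNA of pigs (8 libraries of 2 pigs, 4 per group) was analysed. According to the methods and the submitters' processing notes, the authors filtered the reads, mapped them with HISAT2 2.0.4 to Sus scrofa 11.1, assembled new coding transcripts with StringTie, and estimated expression with Bowtie2 2.2.5 and RSEM 1.2.12. FPKM of 17778 known genes and 325 new transcripts was deposited by the authors for all 8 libraries, with no scaling between libraries stated. FPKM does not show the fragment number behind each value. The study gives the clean reads as group means, which were similar, and not per gene. The SD between pools therefore stands for the precision. The 4 pairwise comparisons also deposited (fold changes, FDR and p-values of the authors by a Poisson method) were not used.

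The 13175 genes that reached 0.3 FPKM in 4 or more libraries entered limma 3.58.1 (R 4.3.3) as log2(FPKM + 0.1). The model held the group alone, used a trend of variance on mean, and was adjusted by Benjamini-Hochberg over all 13175 genes. Positive changes are higher in steatosis. On simulated data of 13175 genes the fit recovered, at the strict limits, 70 of 100 genes changed by 1.5 on the log2 scale. Of those changed by 3 it recovered 98 of 100, with 3 false calls. The simulated noise was independent and normal, with no general shift, no pairing of pools and no pool with markers of other tissues. The softer limit and smaller changes were not simulated, so the false calls and recovery there are not known. Single genes and ratios were compared by two-sided exact permutation tests over pools (Python 3.11.15, scipy 1.17.1, matplotlib 3.10.9 for plots). P-values measure the spread between pools only.

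The labels number the pools 1 to 4 in both groups, and the study describes the animals of both states as the same, without stating which pigs entered each pool. Deviations from the group means correlated at 0.163 to 0.350 between pools of the same number and at -0.203 to 0.028 between other pools, so the numbers were taken to pair the pools, and a fit blocked on the pool number was tried. The other alternatives were 3 scalings, no filter or a filter of 1 FPKM, pseudocounts of 1 and 0.01, no trend, each library left out, and the softer limit. The block with scaling, leaving out both libraries of pool 1, and the carboxylesterase sum were added after seeing the data.

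The genes and lists were chosen with earlier results of these data known. All genes of the lipase list are named. Of each other list at most 3 genes called at the strict limits, those with the largest log2 fold change, are named, or 1 if none was called. Further genes were named after their values were seen, which is stated beside them, or because a result turned on them. The values of 1 list gene are not reported here. Coordinates are those of RefSeq for Sscrofa11.1, matched by gene ID. Sequences were not used here.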

Additional observations from a re-analysis of the deposited data

Results flagged for a closer look

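Of 38 groups of 4 pools examined, 5 held a pool far from the other 3, where chance alone gives about 1 in 20. CES1 was at 174.26 FPKM in pool 4 of the initial state, below the other initial pools. The summed hepatocyte markers of the same pool reached 91373 FPKM, above the other initial pools. In pool 1 of the initial state the summed markers were 122.4 FPKM for adipocytes, 2808.6 FPKM for skeletal muscle and 2259.6 FPKM for stomach, each above the other initial pools.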

How the results depend on the processing

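Over all genes, the 792 called higher at the strict limits became 439 with upper quartile scaling, 411 with median ratio scaling, 412 with that scaling and the replicate block together, 395 with a pseudocount of 1 and 3519 at the softer limit. The 44 called lower became 73, 83 and 87 with those scalings, 300 at the softer limit and 26 to 50 with a library left out. The share of higher calls was 94.7% as deposited and 83.2% after median ratio scaling. Of the lipase genes, 0 were called higher except 2 at the softer limit, and 0 lower except 1 (G0S2) with the block, the block with scaling, both libraries of pool 1 left out and the softer limit, and 0 to 1 with a library left out. Of the list genes, the 7 called higher became 3, 1, 3 (block with scaling), 4 (pool 1 left out) and 24 (softer limit), and 3 to 6 with a library left out. The 0 called lower became 1 with upper quartile or median ratio scaling or without pool 1, 8 at the softer limit and 0 to 1 with a library left out.

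The log2 fold change of PNPLA2 reversed to -0.22 with upper quartile scaling and to -0.26 with median ratio scaling, with or without the block, and ranged from -0.16 to 0.14 with a library left out. LIPE reversed to 0.046 without both libraries of pool 1 and ranged from -0.83 to 0.083 with a library left out. ABHD5 passed an adjusted p of 0.05 in limma with upper quartile (-0.54) and median ratio scaling (-0.58, with or without the block), and ranged from -0.43 to -0.20 with a library left out. G0S2 ranged from -1.43 to -0.90. LIPG passed with the block (-1.13), with the block and scaling (-1.40), and ranged from -1.66 to -0.64. LIPC no longer passed with upper quartile (0.28) or median ratio scaling (0.24, with or without the block). CES1 no longer passed with a common sum (0.51), upper quartile (0.27) or median ratio scaling (0.23, with or without the block), no filter (0.50), no trend (0.50) or pool 1 left out (0.56), and ranged from 0.34 to 0.58. The cause was not tested. The block changed no other call of a lipase gene.

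The planned ratio of AADAC to CES1 was not run, since AADAC had no row. Sign flips over 4 pairs of pools cannot give a p under 0.125. The precision is limited by 4 pools per group and by unknown fragment numbers per gene, most for PNPLA3 and LIPE at about 1 FPKM or less.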
